A study of Homo sapiens with 20 samples.

Results

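Metallothioneins were followed here across the differentiation of HepaRG cells, with all 10 array probes whose RefSeq accession belongs to MT1A, MT1E, MT1F, MT1G, MT1H, MT1M, MT1X or MT2A, out of 42405 probes on the array. The genes are named by family and no measured value enters the rule, though the members were chosen with earlier results of these data known. The HepaRG line comes from a human liver tumor, and its progenitors become hepatocyte-like and biliary-like cells in culture. The series holds 20 one-color Agilent 8x60K arrays, 4 for each condition, from RNA of whole cultures. All cultures grew in William's E medium with 10% serum, insulin at 5 μg/ml and the glucocorticoid hydrocortisone at 50 μM from seeding on. D4 cells were taken at day 4 and D15 cells at day 15. D30 − DMSO cells stayed in the same medium until day 30, and D30 + DMSO cells received 2% dimethyl sulfoxide (DMSO) from day 15 to day 30. D34 ± DMSO cells were treated like D30 + DMSO and then kept without DMSO for 4 days. Because HepaRG is 1 line and each array measures a mixture of its cell types, fewer cells of a type and less RNA per cell cannot be told apart.

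Metallothioneins are small proteins rich in cysteine that bind zinc, copper and cadmium, and the liver is one of their main sites of production. MTF1, a transcription factor with zinc fingers, senses free zinc and turns these genes on through metal response elements in their promoters. Glucocorticoids, heavy metals and acute-phase cytokines also raise metallothionein mRNA in hepatocytes. The human genes of the family lie in 1 cluster on chromosome 16 and are close in sequence. A probe made for one member may therefore also bind the mRNA of another, and which transcripts each probe binds was not tested.

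Promoters are shown because metal response elements are what the family is known to share. The RefSeq promoter table of build GRCh38.p14 held 3 of the 8 members, MT2A, MT1H and MT1X, of which MT1X gave the only call of this family below. The 250 bases before the start of each gene are written 5′ to 3′ on the gene's own strand, the plus strand, with the core of the metal response element in capitals. The core was searched as TGCACNC and TGCGCNC on both strands, and no site found in these genes overlapped another.
MT2A, chr16:56608334-56608583: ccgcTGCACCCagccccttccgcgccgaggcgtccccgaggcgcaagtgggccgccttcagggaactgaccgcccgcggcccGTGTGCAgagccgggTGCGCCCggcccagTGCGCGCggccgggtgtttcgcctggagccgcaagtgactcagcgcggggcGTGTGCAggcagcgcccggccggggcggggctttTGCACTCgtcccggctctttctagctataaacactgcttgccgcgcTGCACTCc
MT1H, chr16:56669564-56669813: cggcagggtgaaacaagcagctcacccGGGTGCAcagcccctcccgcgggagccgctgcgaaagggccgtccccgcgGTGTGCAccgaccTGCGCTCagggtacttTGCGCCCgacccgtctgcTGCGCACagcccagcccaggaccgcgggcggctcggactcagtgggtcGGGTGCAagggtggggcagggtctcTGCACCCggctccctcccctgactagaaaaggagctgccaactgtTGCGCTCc
MT1X, chr16:56682220-56682469: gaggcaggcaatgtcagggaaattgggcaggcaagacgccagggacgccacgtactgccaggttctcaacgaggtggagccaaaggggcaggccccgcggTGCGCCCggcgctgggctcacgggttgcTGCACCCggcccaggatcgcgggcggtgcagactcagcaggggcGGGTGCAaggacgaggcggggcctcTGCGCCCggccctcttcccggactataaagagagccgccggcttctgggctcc
The MT2A sequence held 7 cores, 5 of them on the strand of the gene, MT1H held 8 and MT1X held 4. Of all 35116 promoters of the same length in the table, 24.8% held at least 1 core and 0.37% held at least 4. A TATAAA sequence lay on the gene's strand in MT2A and MT1X, against 6.8% of all promoters, and these letters were not found in the 250 bases of MT1H. A match of letters is a description and does not show that a factor binds there.

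Levels are given in intensity units, the processed signal of Feature Extraction scaled so that the 75th percentile of every array was 546 units. The scale is that of 1 probe, so a level of one probe cannot be set against a level of another. A probe was kept for testing if it exceeded background on every array of some condition, and 8 of the 10 probes, from 7 genes, did so on all 20 arrays. The probe of MT1G (NM_005950) lay between 0.853 and 17.3 units and exceeded background on 6 of 20 arrays, and a second probe of MT1H on 0 of 20. Neither was tested. No spot of the family was saturated. The arrays lie on 4 slides, and slide 4, the only slide of the second scan session, carries all replicates numbered 4, as well as the third D15 and D30 + DMSO arrays. Over all kept probes, deviations from the condition means had a median r of 0.366 for the 44 pairs of arrays from different conditions that share a slide, and of -0.16 for the 116 pairs that do not. The slide 4 array was the highest of D30 − DMSO for 6 of the 8 probes and the highest of D34 ± DMSO for 7. For some probes, values within slides are therefore given for D15 against D4, DMSO addition, DMSO removal and D34 ± DMSO against D30 − DMSO. Cell markers followed the labels, with the 12 hepatocyte markers called higher at D15 than at D4 and the 8 proliferation markers called lower. Of the 8 biliary markers, 5 passed the filter, and EPCAM and CFTR were among those that did not.

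MT2A (NM_005953) encodes the metallothionein-2 isoform, and its probe gave 163592, 184629, 225978 and 145656 units in replicates 1 to 4 of D4. At D15 it gave 137342, 134759, 171298 and 131935 units. At D30 − DMSO, the values were 140964, 105419, 126098 and 187647 units. The arrays of the 3 conditions overlapped. D30 + DMSO gave 237652, 184732, 269365 and 213549 units, all above the D15 arrays. After removal, MT2A stood at 120736, 97075, 159956 and 229156 units, with replicate 4 inside the range of D30 + DMSO and the others below it.

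MT1X (NM_005952) has 2 probes. Probe A_33_P3236868 gave 3104, 3581, 4064 and 3806 units at D4, the lowest mean of any condition. At D15 it gave 4916, 5666, 8538 and 7604 units, all above D4. Replicates 1 to 3 of D30 − DMSO lay between 5001 and 6177 units and replicate 4 at 11656 units. With DMSO, the probe gave 12581, 10209, 15301 and 18949 units. D34 ± DMSO gave 3694, 2835, 5094 and 7183 units, all below the D30 + DMSO arrays. The other probe, A_33_P3350056, gave between 26266 and 31857 units at D4, so its D4 arrays were not the lowest. At D15 it lay between 18327 and 30021 units and at D30 − DMSO between 17446 and 41307. It gave 35689, 29931, 46913 and 55870 units with DMSO at D30, and 15084, 12379, 18173 and 43705 units at D34 ± DMSO. There, replicate 4 alone reached the D30 + DMSO range.

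MT1E (NM_175617) gave between 34085 and 50229 units at D4, between 25229 and 35011 at D15 and between 24255 and 43065 at D30 − DMSO. It gave 44486, 36360, 53847 and 45017 units at D30 + DMSO and 20514, 14952, 24780 and 50063 units at D34 ± DMSO. Replicates 1 to 3 of D34 ± DMSO lay below every D30 + DMSO array and replicate 4 among them. MT1A (NM_005946) ranged from 43653 to 61723 units at D4, from 32914 to 47570 at D15, from 31641 to 57599 at D30 − DMSO and from 45791 to 66186 at D30 + DMSO. It gave 30576, 23261, 37373 and 64156 units at D34 ± DMSO. Its replicate 4 of D34 ± DMSO lay within the range of the treated cells. MT1H (NM_005951), read by probe A_33_P3315314, ranged from 25616 to 36262 units at D4 and from 18137 to 27218 at D15. It ranged from 16719 to 34480 at D30 − DMSO and from 28211 to 40157 at D30 + DMSO. It gave 15495, 12166, 19608 and 38797 units at D34 ± DMSO. Again replicate 4 alone fell within the D30 + DMSO range. MT1M (NM_176870) gave 27886, 23576, 32652 and 12080 units at D4 and between 13594 and 18506 units at D15, and its low D4 array was replicate 4, on slide 4. At D30 − DMSO it lay between 14435 and 18478 units. Its D34 ± DMSO values were 12571, 8277, 15185 and 16776 units, against 15700 to 27050 units with DMSO at D30, so the groups overlapped through replicate 4 of each.

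MT1F (NM_005949) did not follow the others. Its probe gave between 349 and 435 units at D4 and 502, 501, 578 and 755 units at D15, so these groups did not overlap. At D30 − DMSO it lay between 443 and 547 units. At D30 + DMSO it gave 459, 397, 542 and 189 units, and replicate 4 was the lowest of all 20 arrays. At D34 ± DMSO the values were 305, 289, 439 and 327 units.

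**Figure D1:**
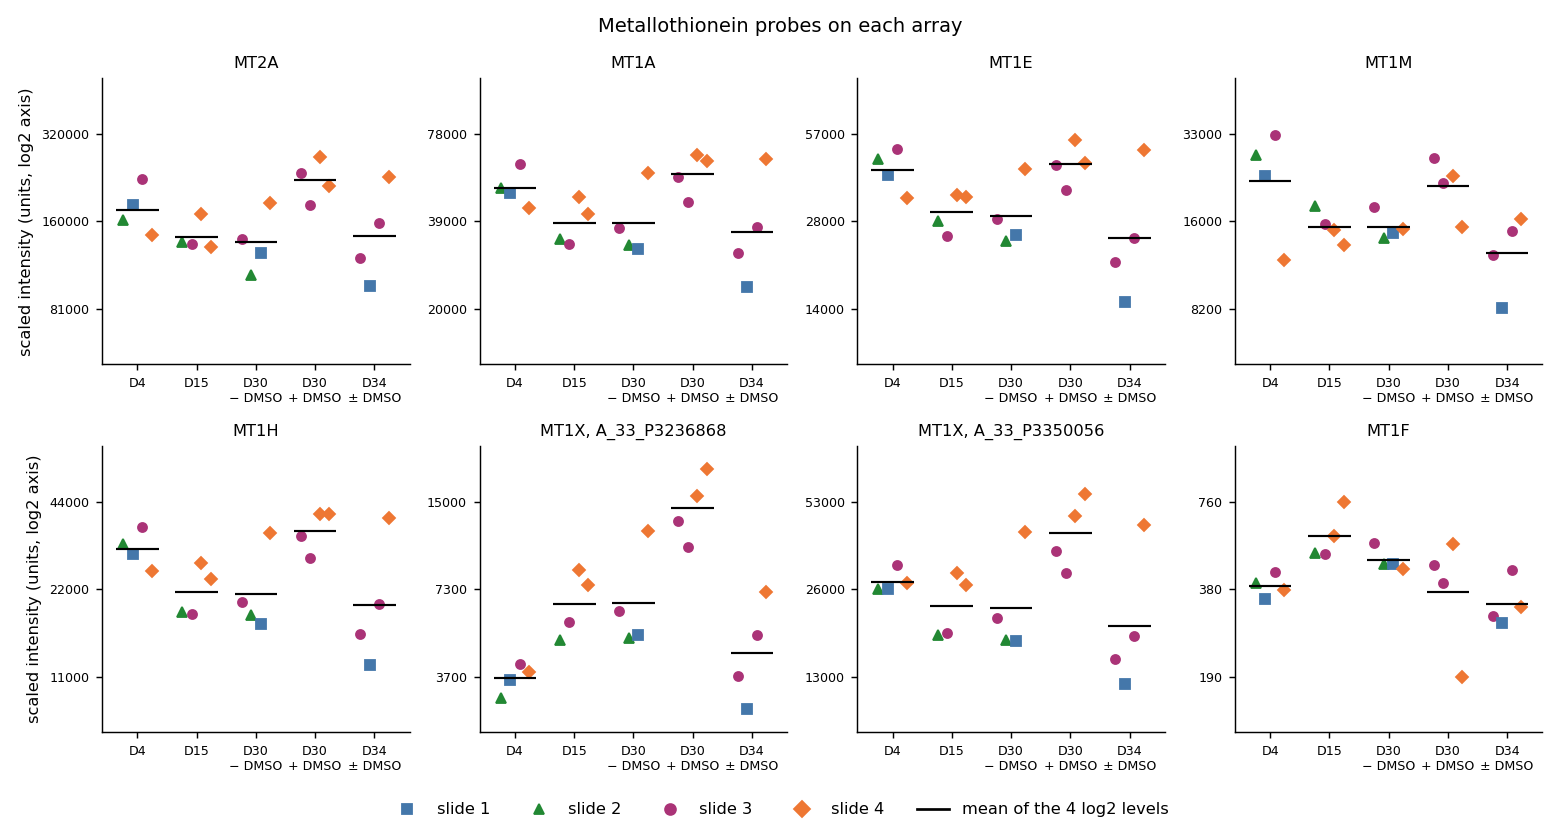
Scaled intensity (units, log2 axis) of the 8 probes that passed the filter on each of the 20 arrays, by condition. Symbols give the slide and lines the mean of the 4 log2 levels; for 7 of the 8 probes D30 + DMSO is the highest or, for MT1M, the second highest condition, and the slide 4 arrays of D30 − DMSO and D34 ± DMSO lie above the others for most probes.

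In order of mean log2 level, D30 + DMSO stood first for MT2A, MT1A, MT1E, MT1H and both MT1X probes. D4 came second for each of these but MT1X A_33_P3236868, where it came last. D15, D30 − DMSO and D34 ± DMSO were closer to each other than the larger of their SDs for every probe with D30 + DMSO first. The gap between D30 + DMSO and the next condition was larger than the larger SD of the pair only for MT2A (0.34 against 0.27), MT1X A_33_P3236868 (1.08 against 0.57) and MT1X A_33_P3350056 (0.55 against 0.40), all on the log2 scale. For MT1E, MT1A and MT1H it was the next gap, between D4 and D15, that passed this mark. For MT1M, D4 stood before D30 + DMSO with a gap within the SD, and MT1F had D15 first and D34 ± DMSO last.

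Pairs of conditions were tested with limma over all 26531 probes kept, and a probe was called at a Benjamini-Hochberg adjusted p below 0.005 with more than 2-fold change, the thresholds of the study's methods. Values are log2 fold changes with their standard error (SE) for 4 arrays per condition. Cultures are the replicates, as the study describes 4 independent experiments. The D30 + DMSO arrays enter both the comparison for DMSO addition and that for removal.

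From D4 to D15, the step in which the proliferation markers fell and the hepatocyte markers rose, 0 of the 8 metallothionein probes was called, against 9.19% of all probes. At an unadjusted p below 0.05 limma gave 2, against 32.6% of all probes, and at an adjusted p below 0.05 it gave 1, against 23.5%. For 6 of the 8 probes the fold change was below 0, with a median of -0.36 over the 8 and of 0.03 over all probes. MT1M differed by -0.52 (SE 0.27) and MT2A by -0.31 (SE 0.23). The MT2A value depended on the processing, and over 10 other settings it lay between -0.85 and -0.31, with limma adjusted p between 0.00588 and 0.512. Probes above 0 were MT1X A_33_P3236868, at 0.85 (SE 0.30, adjusted p = 0.0456), and MT1F, at 0.57 (SE 0.24, adjusted p = 0.11), and these were also the 2 probes whose groups did not overlap, against 24% of all probes. With the slide as a block, the adjusted p was below 0.05 for 4 of the 8 probes and for 35.7% of all probes, among them MT1H at -0.69 (adjusted p = 0.0262) and MT1A at -0.58 (adjusted p = 0.0366), both under 2-fold. Within slides 2 and 3, each with 1 array of either condition, MT1E differed by -0.71 and -0.99. Within slide 4, with 2 D15 arrays and 1 D4 array, it differed by 0.03. The part of the changing cell markers in these values was not tested.

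A further 15 days without DMSO left the family without a call (D30 − DMSO against D15, 0 of 8, against 0.00377% of all probes). In limma, 0 of 8 had an unadjusted p below 0.05, against 2.93% of all probes. The fold changes lay between -0.27 for MT1F and 0.01 for MT1X A_33_P3236868. The interval of MT2A ran from -0.55 to 0.43 on the log2 scale.

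With DMSO in place of plain medium over the same days, 0 of 8 probes was called at D30 + DMSO against D15, where 6.35% of all probes were. At an unadjusted p below 0.05, limma gave 6 of 8 probes, against 30.1% of all probes. The median was 0.61 over the 8 and 0.03 over all probes. MT1F went the other way, at -0.64 (SE 0.24, adjusted p = 0.0769), and is one of those 6. MT1X A_33_P3236868 stood at 1.09 (SE 0.30, adjusted p = 0.0130), short of the threshold, and passed at 1.02 once the slide was a block (SE 0.18, adjusted p = 0.000562), as did 7.5% of all probes. Groups did not overlap for 4 of the 8 probes, MT2A, MT1E, MT1H and MT1X A_33_P3236868, against 23.4% of all probes.

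DMSO addition was compared directly between D30 + DMSO and D30 − DMSO. No metallothionein probe passed the thresholds (0 of 8, against 5.77% of all probes, with 1.66% higher and 4.12% lower). The fold change was above 0 for 7 of the 8, with a median of 0.65, against 0.04 over all probes. The adjusted p was below 0.05 for 2 of the 8 probes and for 18.3% of all probes. These were MT1X A_33_P3236868, at 1.08 (SE 0.30, adjusted p = 0.0147), a 2.12-fold difference with a 95% interval from 1.38 to 3.27, and MT2A, at 0.71 (SE 0.23, adjusted p = 0.0404), a 1.64-fold difference. The groups overlapped for each of the 8 probes, for 6 of them through replicate 4 of D30 − DMSO, while 25.2% of all probes did not overlap. Without that array, MT1X A_33_P3236868 was called at 1.36 (adjusted p = 0.00231). MT1F lay on the other side of 0, at -0.37 (SE 0.24, adjusted p = 0.37).

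On slide 3 the difference between these conditions was 0.88 for MT1X A_33_P3236868 and 0.57 for MT2A, and on slide 4 it was 0.55 and 0.35. Each of these slides held 2 D30 + DMSO arrays and 1 D30 − DMSO array, on slide 4 replicate 4. The other members kept their sign on both slides, between 0.41 and 0.64 on slide 3 and between 0.17 and 0.32 on slide 4 for the probes above 0. Over the 440 probes of all genes called higher, which were picked on these same arrays, the medians were 1.23 on slide 3 and 1.60 on slide 4. Of the 12 hepatocyte markers, 1 was called higher, and the list had a median of 0.46 with members on both sides of 0, such as CPS1, a urea cycle enzyme, at -1.49 (adjusted p = 0.0451). The summed level, to which ALB and TTR give the most, lay between 974725 and 1034650 units at D30 − DMSO and between 1168710 and 1848980 units at D30 + DMSO. Of the 5 stellate or fibroblast markers kept, 2 were called lower, and the sum of the 5 went from between 4765 and 9968 units to between 1272 and 2106. DCN gave the most to it at D30 − DMSO, with a mean of 4175 units, against 515 with DMSO. Such sums add signals of different probes, so they follow the brightest ones. COL1A2 and PDGFRB, defining markers of such cells, did not pass the filter. The part of these in the metallothionein levels was not tested.

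DMSO removal gave the one call. MT1X A_33_P3236868 fell 3.14-fold from D30 + DMSO to D34 ± DMSO, a log2 fold change of -1.65 (SE 0.30, adjusted p = 0.00047, 95% interval -2.27 to -1.03). All 4 D34 ± DMSO arrays lay below all 4 D30 + DMSO arrays. That is 1 of 8 probes called, against 6.92% of all probes, with 2.03% lower. The groups did not overlap for this probe alone among the 8, and for 24% of all probes. With slides blocked, the value was -1.43 (SE 0.18, adjusted p = 2.37e-05), and 8.25% of all probes were called. On slide 3 it was -1.39 and on slide 4 -1.25. The call was lost, with 0 of 8 probes called for removal, in a limma fit to the compared arrays alone and by the t-test of the methods.

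All 8 probes had a fold change below 0, with a median of -0.80 against -0.06 over all probes, and 5 of 8 had an adjusted p below 0.05, against 22.1% of all probes. Short of the threshold were MT1X A_33_P3350056, at -1.06 (SE 0.34, adjusted p = 0.032), MT1H, at -0.85 (SE 0.29, adjusted p = 0.0426), MT1E, at -0.84 (SE 0.28, adjusted p = 0.0376), and MT1M, at -0.77 (SE 0.27, adjusted p = 0.0468). MT1A stood at -0.66 and MT2A at -0.64, with adjusted p of 0.0753 and 0.058. MT1F differed by -0.14 (SE 0.24), and by 0.044 without replicate 3 of D30 + DMSO.

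The number of members called turned on replicate 4 of D34 ± DMSO. Without it, 4 probes of 3 genes were called, MT1X with both probes (A_33_P3350056 at -1.44, adjusted p = 0.00152), MT1E at -1.18 (adjusted p = 0.000994) and MT1H at -1.18 (adjusted p = 0.00196). The array lies on slide 4 with replicates 3 and 4 of D30 + DMSO, against which MT1E differed by 0.02, MT1A by -0.01 and MT1H by -0.05. On slide 3, with 2 arrays of each condition, the same probes differed by -0.83, -0.58 and -0.82. The 539 probes of all genes called lower had medians of -1.17 on slide 3 and -1.54 on slide 4. They were picked on these same arrays, so medians well below 0 are built in. Proliferation markers moved in the opposite direction to the family, as 8 of 8 were called higher and their summed level went from 856 to 2141 units at D30 + DMSO to 8373 to 20912 units at D34 ± DMSO. BIRC5 gave the most to that sum, with means of 851 and 6677 units. The sum of the 5 stellate or fibroblast markers went to between 4926 and 10157 units, with 2 called higher, and that of the 12 hepatocyte markers to between 943008 and 1186260, with 1 called lower. The part of these in the result was not tested.

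**Figure D2:**
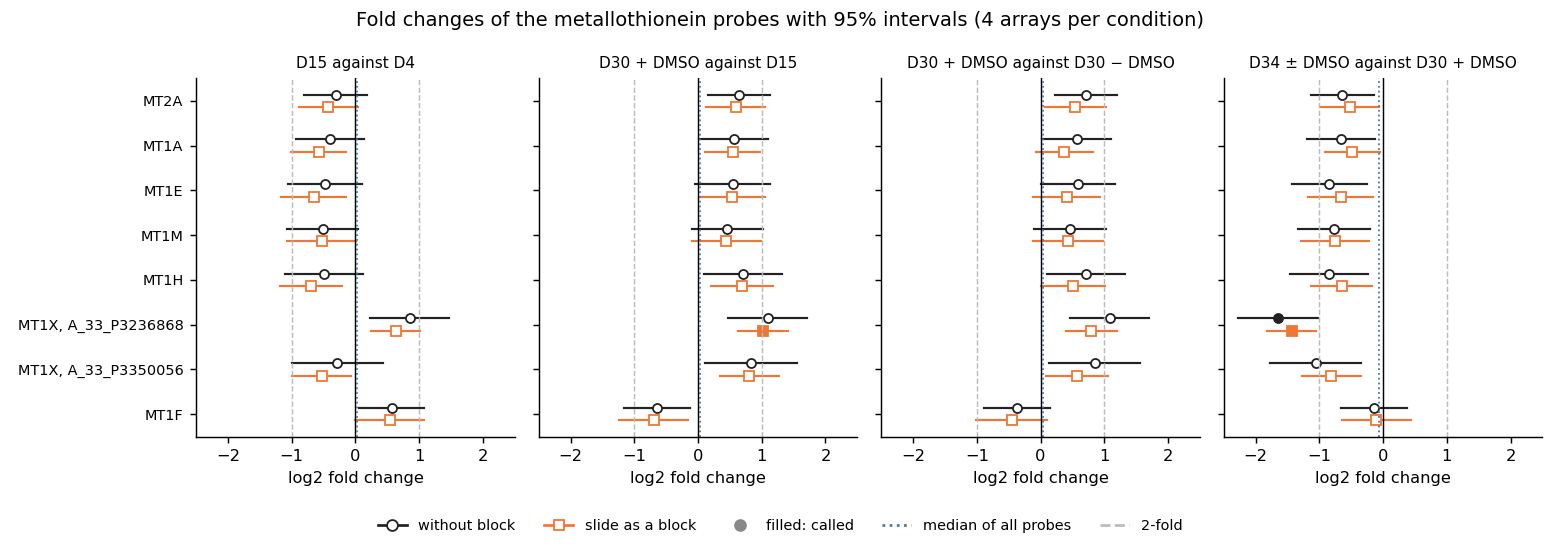
Log2 fold change (x axis) of the 8 probes in 4 comparisons, with 95% intervals, without a block (circles) and in the fit that blocks by slide (squares); filled symbols are called, the dotted line is the median of all probes and dashed lines mark 2-fold. MT1X A_33_P3236868 is the one called probe, at D34 ± DMSO against D30 + DMSO in both fits and at D30 + DMSO against D15 in the blocked one.

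**Figure D3:**
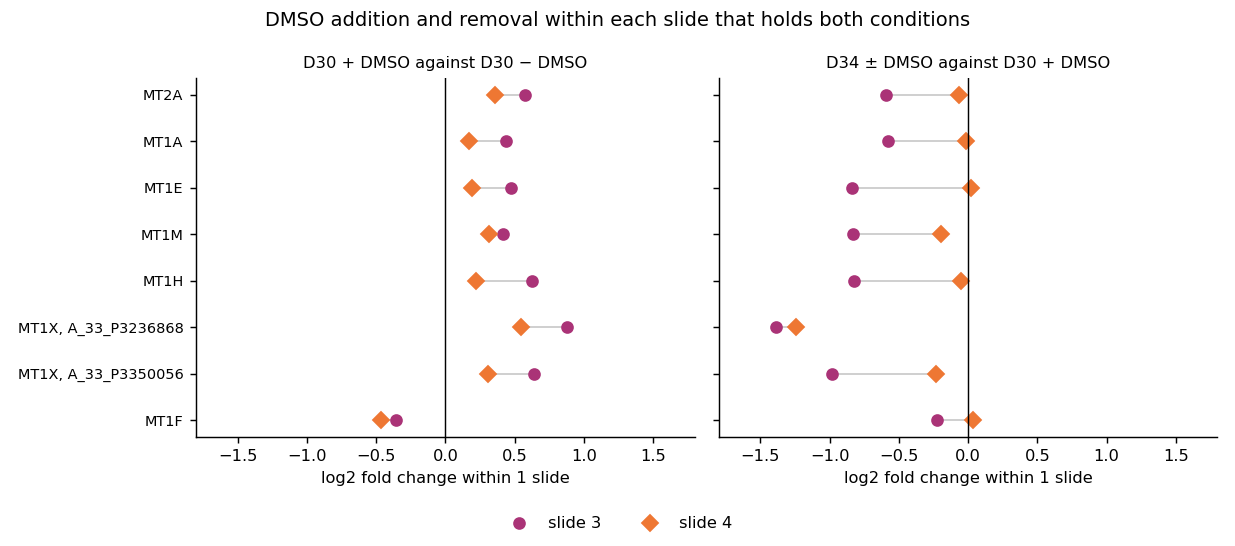
Log2 fold change of each probe (x axis) for DMSO addition (left) and removal (right), computed within slide 3 (circles) and slide 4 (diamonds). On slide 4, removal leaves MT1E, MT1A, MT1H and MT2A within 0.07 of 0 and MT1X A_33_P3236868 at -1.25.

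Cells taken off DMSO and cells that never had it were compared last, at D34 ± DMSO against D30 − DMSO. The number of metallothionein probes called was 0 of 8, against 1.48% of all probes. In limma, 0 of 8 had an unadjusted p below 0.05, against 15.1% of all probes. MT2A differed by 0.07 (95% interval -0.42 to 0.56), and within slides 1, 3 and 4 by -0.38, -0.02 and 0.29. MT1X A_33_P3236868 differed by -0.57 (95% interval -1.19 to 0.06, and -0.64 with adjusted p = 0.0358 once the slide was a block). Within the same slides it differed by -0.85, -0.51 and -0.70. Each of these slides held 1 D30 − DMSO array. Groups did not overlap for 1 of 8 probes, MT1F at -0.51, against 11.8% of all probes. limma's F-test of all 5 conditions together, with the thresholds at 0.001 for the Bonferroni p and at 3-fold, called 4.93% of all probes and 0 of these 8. The widest span of condition means was that of MT1X A_33_P3236868, 1.94 on the log2 scale (unadjusted p = 4.96e-05).

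The 2 MT1X probes carry the same accession, yet they did not move together between D4 and D15. Their ratio within each array cancels what acts on both alike. Relative to the mean of D30 − DMSO, the ratio of A_33_P3236868 to A_33_P3350056 was 0.409, 0.473, 0.442 and 0.477 at D4. It lay between 0.930 and 1.06 at D15 and between 0.978 and 1.02 at D30 − DMSO. At D30 + DMSO it lay between 1.13 and 1.22, above all arrays without DMSO. At D34 ± DMSO it was 0.849, 0.794, 0.972 and 0.570, with replicate 4 the lowest.

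The differences between the probes of 1 gene were fitted for 3823 pairs from 3238 genes, a comparison added after the values were seen. Each pair set the brightest kept probe of a gene against another kept probe. The 2 MT1H probes form no such pair, as 1 of them did not pass the filter. From D4 to D15, the log2 ratio of the MT1X pair shifted by 1.13 (SE 0.12, adjusted p = 1.55e-05), which passed the thresholds, as did 1.46% of the pairs. After DMSO removal, the shift was -0.59 (SE 0.12, adjusted p = 0.00647), short of them, where 1.6% of the pairs passed. DMSO addition shifted the pair by 0.24 (SE 0.12, adjusted p = 0.41), where 1.49% of the pairs passed. Probe sequences were not used here, so which part of the transcript, or which other member, each probe reads was not tested.

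**Figure D4:**
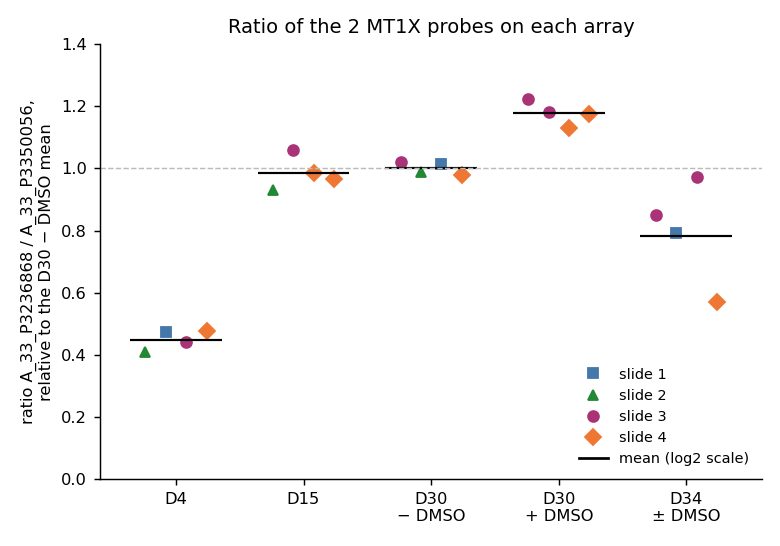
Ratio of the 2 MT1X probes on each array, relative to the mean of D30 − DMSO (y axis, from 0), by condition, with symbols for the slide and lines for the mean on the log2 scale. The D4 arrays lie between 0.409 and 0.477 and the other 16 arrays between 0.570 and 1.22.

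Several members varied together across the 20 arrays. Pearson's r of the log2 levels was 0.996 between MT1A and MT1H, 0.976 between MT1E and MT1H, and 0.938 between MT2A and MT1A, and with the condition means taken out it was 0.995, 0.974 and 0.927. MT1M followed less closely, with 0.646 against MT1A and 0.432 within conditions. MT1F ran apart, with r between -0.13 and 0.18 against each of the other 7 probes. These values describe arrays that share slides, and probes that may bind each other's transcripts.

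Of 11 other metallothionein genes and pseudogenes listed, 6 have a probe, and MT1B, MT1L, MT1IP, MT1DP and MT3 passed the filter. None of the 5 was called at D15 against D4, for DMSO addition or for removal, against 9.19%, 5.77% and 6.92% of all probes. The probes named for MT1B (NM_005947) and MT1L followed MT1E with r of 0.987 and 0.980, and differed by -0.76 and -0.83 upon DMSO removal (adjusted p = 0.0526 and 0.067). MT1L is a pseudogene, and whether its probe reads other members was not tested. MT1IP and MT1DP, also pseudogenes, ranged from 16.4 to 62.7 and from 8.94 to 39.4 units. MT3, best known from the brain, ranged from 3884 to 7260 units and differed by at most 0.16 in size in these 3 comparisons. The probe of MT4, a gene of stratified epithelia, was well above background on 0 of 20 arrays.

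The mean of the members, each centred over the arrays, was compared with 14220 other genes. Among the 5 nearest were PTPRA, a receptor tyrosine phosphatase, with r = 0.86 over 20 arrays, NENF with 0.85, GPN2 with 0.82 and UBQLN1, a ubiquilin, with 0.82. No gene reached 0.9 and 11 passed 0.8.

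Among genes of zinc handling, MTF1 (NM_005955) gave between 250 and 326 units at D30 + DMSO, between 202 and 263 at D30 − DMSO and between 176 and 203 at D34 ± DMSO. It differed by 0.30 for DMSO addition (SE 0.17, adjusted p = 0.248) and by -0.58 for removal (SE 0.17, adjusted p = 0.0164). SLC30A1 (NM_021194), the zinc exporter of the plasma membrane and itself a target of MTF1, ranged from 401 to 471 units at D30 − DMSO, from 677 to 816 at D30 + DMSO and from 408 to 579 at D34 ± DMSO. Its D30 + DMSO arrays lay above all arrays of the other two. It differed by 0.75 for addition (SE 0.15, adjusted p = 0.00108) and by -0.73 for removal (SE 0.15, adjusted p = 0.00118), past the threshold of p and under 2-fold, and so was not called. From D4 to D15 it differed by -0.51 (adjusted p = 0.0147).

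Of the 10 zinc exporters, 0 passed for DMSO addition or removal, against 5.77% and 6.92% of all probes. With the slide as a block, 1 passed for removal, SLC30A3 at 1.00, named after its values were seen. From D4 to D15 SLC30A10, which exports manganese, rose by 3.60 (adjusted p = 1.08e-06), with 3 of 4 D4 arrays above background. Of the 12 zinc importers measured, 1 was called for addition and 2 for removal, where 5.77% and 6.92% of all probes were. Blocking by slide added SLC39A1, also named after its values were seen, as lower for addition at -1.39 and higher for removal at 1.04. SLC39A11 lay between 853 and 1444 units at D30 − DMSO, between 2644 and 3595 at D30 + DMSO and between 1038 and 1874 at D34 ± DMSO, with the treated arrays above all others. It rose by 1.42 with DMSO (SE 0.20, adjusted p = 4.63e-05) and fell by 1.12 after removal (adjusted p = 0.000355). SLC39A5, an importer of liver and pancreas, rose by 5.34 from D4 to D15 and fell by 1.51 on the log2 scale after removal (adjusted p = 0.00165). The medians of the importers were 0.08 for addition and -0.23 for removal, against 0.04 and -0.06 over all probes.

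Among 13 copper genes measured, 2 rose and 1 fell with DMSO, where 1.66% of all probes were called higher and 4.12% lower. SLC31A1, the copper importer of the plasma membrane, rose by a log2 fold change of 1.11 (SE 0.16, adjusted p = 7.38e-05), and ATP7B, the copper pump of hepatocytes, rose by 1.01 (SE 0.22, adjusted p = 0.0027). CP, the copper-carrying plasma protein ceruloplasmin, fell by 1.94 with DMSO, again in log2 units (adjusted p = 0.000187), and was the 1 gene of the list called for removal, where it rose by 1.88 (adjusted p = 0.000209). From D4 to D15 CP had risen by 2.02 (adjusted p = 7.36e-05) and STEAP2, a metalloreductase, had fallen by 1.04 (adjusted p = 0.000238).

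Hydrocortisone was present in all conditions. Of the glucocorticoid receptor gene and 14 of its targets, 0 of 15 was called for DMSO addition and 0 of 15 for removal. Of all probes, 5.77% and 6.92% were called. The medians of the list were 0.14 and -0.46, against 0.04 and -0.06 over all probes. ERRFI1, named here after its values were seen, stood 1.99-fold lower after removal (adjusted p = 0.000176), just under the threshold, and was called with a slide block at a log2 fold change of -1.07. Among 10 heat shock and stress genes, 0 was called for addition or removal, beside the same 5.77% and 6.92% of all probes. Their medians were 0.30 and -0.33. NR3C1 (NM_001018077), the receptor gene itself, differed by -0.13 (SE 0.13, adjusted p = 0.593) and by 0.05 (SE 0.13, adjusted p = 0.849). From D4 to D15, 3 of the glucocorticoid list rose, among them HSD11B1, which regenerates active cortisol, at 4.65 (adjusted p = 3.21e-08) and TAT, an enzyme of tyrosine breakdown, at 2.54 (adjusted p = 0.000104), with 2 of 4 D4 arrays above background for TAT. In the heat shock list, HSPB1 fell 2.21-fold (adjusted p = 0.000672) and GADD45A, a DNA damage response gene, 2.14-fold (adjusted p = 7.5e-05) in the same step.

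**Figure D5:**
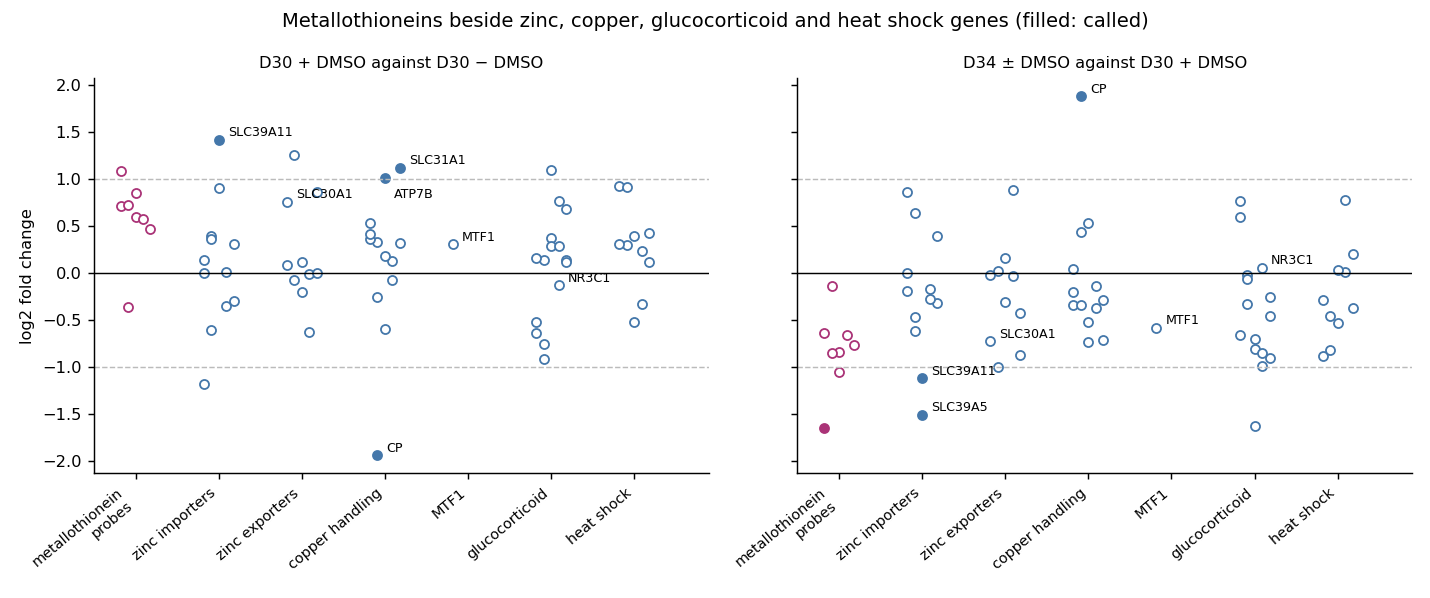
Log2 fold change (y axis) of the 8 metallothionein probes and of each measured gene in 6 lists, for DMSO addition (left) and removal (right); filled symbols are called and dashed lines mark 2-fold. SLC39A11, SLC31A1, ATP7B and CP are called on the left, and SLC39A11, SLC39A5, CP and MT1X A_33_P3236868 on the right.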

How the data were processed

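RNA of 20 HepaRG cultures was measured on one-color Agilent 8x60K arrays, 4 per condition, grouped by GEO's labels. The authors deposited the Feature Extraction output of each array (version 10.7.1.1 per the file headers, 10.7.3.1 per the labels), whose processed signal is an intensity with background subtracted and with no scaling across arrays. A second table deposited by the authors gives log2 values. For 21535 probes, these equal the log2 of the processed signal, after the scaling across arrays described below, less 1 constant per probe. The match holds apart from shifts of whole arrays of 0.113 or less. The column medians of this second table lay between -0.204 and 0.171, and the baseline behind the constants stays unknown.

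Here, non-control spots without outlier flags were averaged per probe, scaled to a common 75th percentile (546 units), floored at 1 and taken to log2. Probes stayed in where some condition had them well above background on all its 4 arrays, 26531 of 42405. Between 61.1% and 74.2% of the spots of an array were well above background, and the number of arrays limits the precision. One linear model of the 5 condition means was fitted over all arrays with limma 3.58.1 in R 4.3.3. The thresholds are those of the study's methods, with limma in place of their t-test. Probes were named through RefSeq accessions. The fit and the thresholds were tested on simulated data without slide effects. They recovered 85% of 100 probes changed 4-fold and 61% of 100 changed 2.5-fold, and smaller changes were not simulated.

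Named genes are all metallothionein genes with a probe, MTF1, SLC30A1 and NR3C1, up to 3 called genes per pathway list with the largest change for DMSO addition, removal and D15 against D4, and the 5 genes nearest to the family mean. Some genes that the rule names are not reported here. The members and lists were chosen with earlier results of these data known. Alternatives were quantile normalization, normexp correction (offset of 50, on median spot intensities), the deposited matrix, no or a stricter filter on dim probes, a floor of 10 units, 1 probe per gene, the slide, scan session or replicate number as a block, a fit to the compared arrays alone, the t-test of the methods, an adjusted p below 0.05 and leaving out each array. The comparison of probes of 1 gene was added after seeing the data.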

Additional observations from a re-analysis of the deposited data

Results flagged for a closer look

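Among the 40 groups of 4 arrays examined for the 8 probes, 1 held an array far from the other 3. For MT2A at D15, replicate 3 (171298 units) was the highest, and its gap to the next array was 0.846 of the range of the group, above Dixon's critical value for 4 arrays at 95%. Chance flags about 1 in 20 groups. The array lies on slide 4.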

How the results depend on the processing

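The fall of MT1X A_33_P3236868 after DMSO removal was called in each refit of all conditions that tested this probe, between -1.65 and -1.43 on the log2 scale over the other settings and between -1.88 and -1.44 when 1 array was left out. A fit to the compared arrays alone called 0 of the 8 probes for removal, as did the t-test of the methods, and the cause was not tested. With 1 probe per gene, the count was also 0, as this probe is then not the one tested. With an adjusted p below 0.05 in place of 0.005 it was 2, both MT1X probes. Leaving out each array gave between 1 and 4 probes called for removal, and between 0 and 1 for addition. For D30 + DMSO against D15, 1 probe (MT1X A_33_P3236868) was called with the slide as a block, with the scan session as a block and at an adjusted p below 0.05, and 1 was called for addition at an adjusted p below 0.05. For removal, MT1F lay between -0.46 and 0.044 when 1 array was left out, and its sign turned only without replicate 3 of D30 + DMSO. The other settings left each count of called probes as it was, and the cause of these changes was not tested.

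Replicate numbers do not pair the arrays by the labels. Deviations of arrays with the same number correlated with a median r of 0.252 over 40 pairs, down to -0.299, and 16 of 20 arrays correlated best with one of the same number. With the replicate block, the counts were 1 for D30 + DMSO against D15, 1 for addition and 2 for removal, with MT1X probes as the ones called, and other counts were as without it.

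Over all probes, normexp gave fewer calls (1511 in place of 2439 from D4 to D15, 782 in place of 1532 for addition, 996 in place of 1836 for removal), and higher calls were 45.5% of all calls at D30 + DMSO against D15, in place of 33.4%. The t-test of the methods gave 1226, 650 and 546. The MT1X probe pair kept its shift from D4 to D15 when any array was left out, between 1.09 and 1.16. With 4 arrays per condition and SEs of 0.23 to 0.34 for these probes, differences under 2-fold could often not be told from the spread.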
